A study of Mus musculus with 6 samples.

Results

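The nuclear pore complex is the large protein ring that spans the nuclear envelope and carries all exchange of RNA and protein between nucleus and cytoplasm. Its transcripts were followed in granulocyte-monocyte progenitors, marrow cells from which neutrophils and monocytes develop. A gene was taken if its symbol began with Nup and a number, or with Nupl or Nupr and a number, or if it was Ndc1, Pom121, Rae1, Tpr, Ranbp2, Sec13, Seh1l, Aaas or Ahctf1. The rule found 33 of the 16539 genes in the deposited table. Of these, 31 encode pore proteins, and the same 31 carry the Gene Ontology term for the nuclear pore in that table. The other 2, Nupr1 and Nupr1l, are described there as transcription regulators and are reported apart from the pore genes. A further 26 genes of the table carry the term but do not match the rule, among them Kpnb1, Ran and Nxf1.

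The mice were wild-type, and the cells were sorted from their marrow 3 days after myocardial infarction, in which heart muscle dies for want of blood. The 6 libraries comprised 3 of control mice and 3 of mice under sleep fragmentation, that is, with sleep broken up repeatedly. Infarction was thus common to both groups, and no library of mice without it was analysed here. Strain, age, the sort gate and the number of mice behind a library are not given in the labels, so p-values rest only on the spread between these libraries, which may partly be technical. The study's design text gives as its question the basis of enhanced proliferation and neutrophil differentiation of these progenitors after sleep fragmentation.

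The pore is built in rings around a central channel. An outer ring of Y-shaped complexes lies on each face of the envelope, an inner ring lines the membrane, and a few membrane proteins anchor both. Proteins with repeats of phenylalanine and glycine (FG repeats) fill the channel and bind importins and exportins, the carriers that load and unload cargo under control of the GTPase Ran. Filaments on the cytoplasmic face finish the export of messenger RNA, and a basket on the nuclear face receives it. Pores are built both after mitosis and during interphase, and dividing cells need new ones in every cycle. Neutrophil precursors stop dividing as they mature, and their nucleus becomes segmented.

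Depth was alike in all libraries, with 28971253 to 31665923 counts and 14047 to 14265 genes with a count. The 33 genes of the rule took 0.257% to 0.354% of the counts, and no pore gene had fewer than 148 reads in any library. Progenitor genes were present at unlike levels: Mpo, myeloperoxidase, lay between 7000.4 and 11557 CPM, and Kit, the stem cell factor receptor, between 150.1 and 193 CPM. Cd34 lay between 27.5 and 66.03 CPM and Flt3 between 1.20 and 2.37 CPM. CPM is the count per 1e+06 counts of the library after TMM scaling. Genes of other marrow cells were present too, and their part in the results was not tested. For 20 late granule genes, which mark maturing neutrophils, the summed level lay between 27717 and 80621 CPM. For 12 progenitor genes it lay between 12311 and 19152 CPM. The summed level of 5 eosinophil genes lay between 2566 and 4627 CPM and that of 5 basophil and mast cell genes between 1006 and 2473 CPM, with both groups overlapping in each list. Summed levels lay between 194 and 275 CPM for 6 macrophage genes, and were at most 88.4 CPM for 6 stroma genes, 73.2 CPM for 5 megakaryocyte genes, 26.1 CPM for 8 erythroid genes, 20.2 CPM for 6 B cell genes and 6.57 CPM for 5 T and NK cell genes. Most of the macrophage sum came from Vcam1 (160.1 to 240.8 CPM). Pecam1 (38.9 to 79.1 CPM) made up most of the stroma sum and Itga2b (34.6 to 69.3 CPM) most of the megakaryocyte sum. After sleep fragmentation, 7 of 7 tested erythroid genes were fitted higher (median log2 difference 0.79), as were 3 of 3 T and NK cell genes (1.51) and 5 of 6 macrophage genes (0.26). None was called by edgeR, and 49% of all tested genes were fitted higher. The T and NK cell sums were 1.83, 1.59 and 1.55 CPM in control (replicates 1 to 3) and 3.78, 1.79 and 6.57 CPM under sleep fragmentation. In that list 4 of 5 genes had a mean under 1 CPM. The erythroid sums were 20.5, 3.88 and 9.95 CPM in control and 11.6, 13.1 and 26.1 CPM under sleep fragmentation. Both lists were highest in sleep fragmentation replicate 3. In such bulk samples, fewer cells of a type and less RNA per cell cannot be told apart.

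After sleep fragmentation, 28 of the 31 pore genes had lower fitted levels and 3 had higher ones under TMM scaling, but no difference reached 2 times its standard error (SE). The 3 were Nupl1, Nup35 and Nup153, which were lower with scaling by library size alone, and Sec13 was higher with DESeq2's size factors. The median log2 fold change was -0.11, a ratio of 0.925, against -0.0043 over all 12097 genes tested, of which 51% had lower and 49% higher fitted levels. The largest difference, in Nup85, was -0.23 (ratio 0.851), and the largest on the higher side, in Nupl1, was 0.047 (ratio 1.03). None of the 31 passed edgeR's quasi-likelihood test with Benjamini-Hochberg adjustment over all genes (adjusted p = 0.99988 for each). The count at an unadjusted p under 0.05 was 0 as well, with unadjusted p between 0.101 and 0.986, and DESeq2 and limma-voom called 0 pore genes. Over all genes edgeR called 0 (0%), with 341 at an unadjusted p under 0.05 (2.82%), 80 of them lower (0.661%). limma-voom called 0 genes and DESeq2 called 13.

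**Figure D1:**
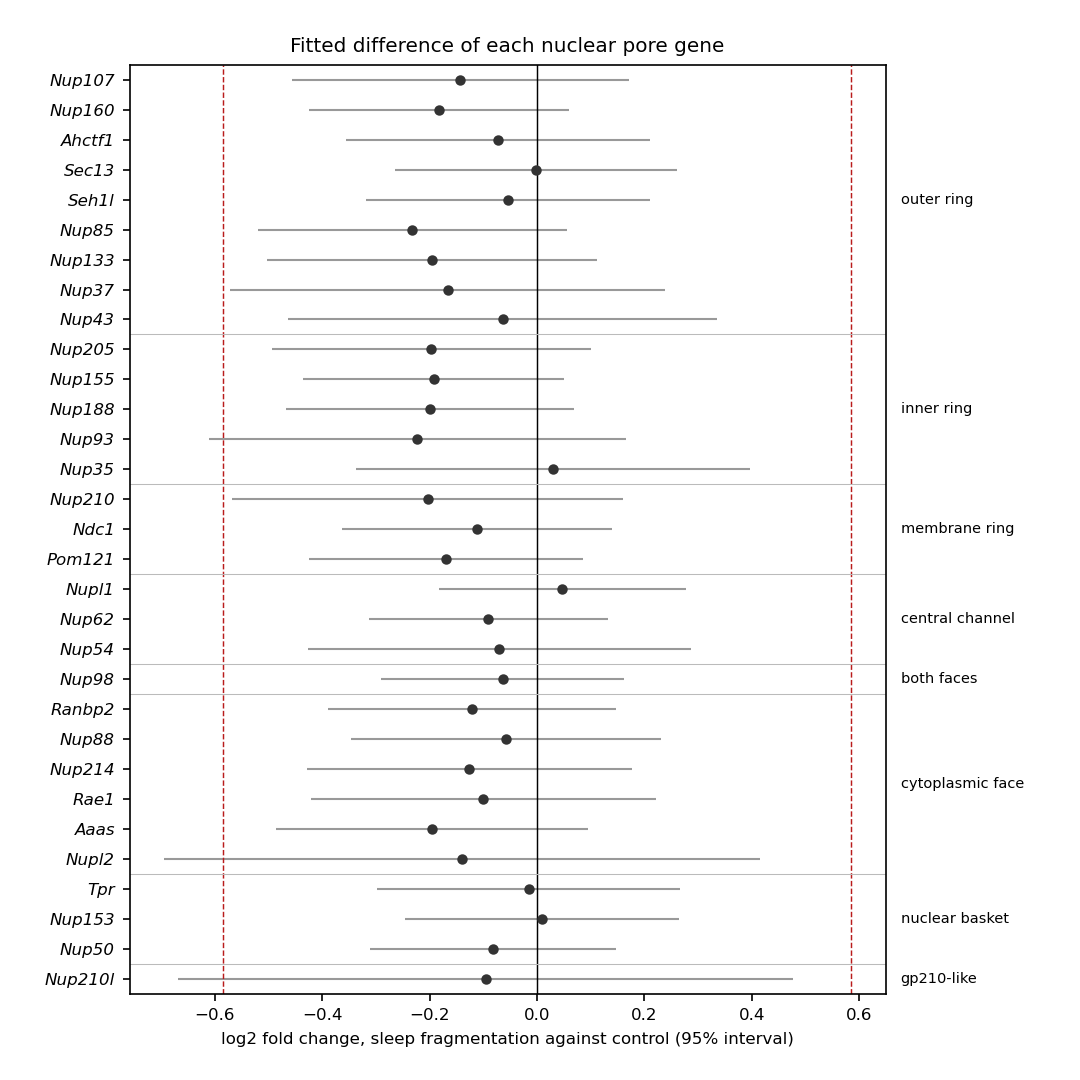
Fitted log2 fold change of each of the 31 pore genes, sleep fragmentation against control, grouped by place in the pore; bars are 95% intervals from the edgeR fit and dashed lines mark a 1.5-fold difference. Under TMM scaling points lie left of 0 for 28 genes, every interval spans 0, and 28 of 31 intervals stay within the dashed lines.

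The measurements bound these differences under TMM scaling, and intervals are given for that scaling only. For 28 of the 31 pore genes the 95% interval of the fitted difference lay within 1.5-fold in either direction, and for 22 within 1.4-fold. Over all tested genes 53.96% had an interval within 1.5-fold. The 3 pore genes with wider intervals were Nup210l, Nupl2 and Nup93, and all 31 lay within 2-fold. The fitted difference was smaller than its SE in 18 genes and between 1 and 2 SE in the other 13. The within-group coefficient of variation (CV, the SD divided by the mean) had a median of 9.95% over the pore genes, against 12.9% over the 8938 tested genes in the same range of CPM. Groups did not overlap in 4 of 31, all lower after sleep fragmentation, and 0 were higher without overlap. Of all tested genes 3.84% were lower without overlap and 2.92% higher. These were Nup155, Nup160, Nup62 and Nup50, and in each of them the gap between the groups was narrow, from 0.385 to 0.997 CPM.

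The promoters of the 4 genes whose groups did not overlap are shown to let the letters around the start of transcription be compared. RefSeq windows of 250 bases before and 50 bases after the start (build GRCm38.p6, which differs from the build of the counts) were at hand for 26 of the 31 pore genes. Capitals mark CCGGAAG, letters bound by the ETS family, and TGCGCA, letters bound by NRF1, each searched on both strands (TGCGCA reads the same on both). No match overlapped another of the 2 motifs.
Nup155 (chr15:8109063-8109362, plus strand): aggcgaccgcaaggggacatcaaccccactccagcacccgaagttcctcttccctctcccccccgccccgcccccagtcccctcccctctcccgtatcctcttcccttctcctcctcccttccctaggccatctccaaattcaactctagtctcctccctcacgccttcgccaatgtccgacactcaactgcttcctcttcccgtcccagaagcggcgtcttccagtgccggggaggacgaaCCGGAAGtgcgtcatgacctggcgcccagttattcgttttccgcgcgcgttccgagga
Nup160 (chr2:90676965-90677264, plus strand): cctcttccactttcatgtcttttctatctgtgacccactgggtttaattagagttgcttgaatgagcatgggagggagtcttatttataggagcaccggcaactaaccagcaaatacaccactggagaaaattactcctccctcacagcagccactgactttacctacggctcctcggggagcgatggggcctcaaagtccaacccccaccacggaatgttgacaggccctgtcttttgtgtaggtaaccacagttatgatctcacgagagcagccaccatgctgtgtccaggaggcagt
Nup62 (chr7:44815838-44816137, plus strand): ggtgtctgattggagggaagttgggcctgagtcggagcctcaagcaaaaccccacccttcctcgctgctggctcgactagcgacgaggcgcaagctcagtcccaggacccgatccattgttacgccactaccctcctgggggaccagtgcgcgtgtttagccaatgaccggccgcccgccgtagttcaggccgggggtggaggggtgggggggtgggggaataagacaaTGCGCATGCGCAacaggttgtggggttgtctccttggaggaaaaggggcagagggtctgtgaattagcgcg
Nup50 (chr15:84923178-84923477, plus strand): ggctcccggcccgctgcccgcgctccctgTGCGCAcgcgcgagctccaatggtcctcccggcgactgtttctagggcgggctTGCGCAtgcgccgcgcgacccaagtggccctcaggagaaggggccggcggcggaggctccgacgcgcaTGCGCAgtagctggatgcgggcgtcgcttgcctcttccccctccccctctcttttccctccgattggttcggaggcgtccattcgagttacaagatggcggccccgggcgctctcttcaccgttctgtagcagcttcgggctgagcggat
Nup155 held the ETS letters -8 bases from the start, where negative positions lie before it. Nup62 held the NRF1 letters at -21 and -15, and Nup50 at -221, -168 and -100. Nup160 held neither. The ETS letters were present in 7 of 26 pore genes with a window, or 26.9%, against 20.6% of 9772 tested genes with a window. Those of NRF1 were present in 4, or 15.4%, against 15.97%. ATGGCGG, letters of YY1, occurred in 5, or 19.2%, against 9.53%. CCAAT, letters of NF-Y, occurred in 10, or 38.5%, against 43.4%. TTCCCGC of the E2F family, the E-box CACGTG and the TATA box letters TATAAA occurred in 3, 4 and 3, or 11.5%, 15.4% and 11.5%, against 9.67%, 11.6% and 8.79% of tested genes. With so few genes these shares are descriptions, and none was tested. The median share of G and C was 63.7% in the pore genes' windows and 60.3% in those of tested genes.

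The outer ring genes had fitted levels below those of control in 9 of 9 under TMM scaling, or 8 of 9 with DESeq2's size factors, which put Sec13 above 0. The median log2 fold change was -0.14. Leaving out control replicate 1 or 2 gave medians of -0.047 or -0.22, and leaving out replicate 1 or 2 of sleep fragmentation gave -0.039 or -0.23. Nup85, which with Seh1l forms an arm of the Y complex, had 79.2, 73.3 and 78.3 CPM in the control libraries (replicates 1 to 3) and 55.9, 74.4 and 66.2 CPM in those of sleep fragmentation. Sleep fragmentation replicates 1 and 3 lay below every control library and replicate 2 within the control range (log2 fold change -0.23, SE 0.13). Nup160, the core of the other arm, had 97.03, 89.6 and 97.3 CPM in the control libraries (replicates 1 to 3) and 84.6, 88.6 and 76.9 CPM in those of sleep fragmentation. The groups did not overlap, but sleep fragmentation replicate 2 lay just under control replicate 2 (94.6 ± 4.36 against 83.4 ± 5.94 CPM, mean ± SD, n = 3; log2 fold change -0.18, SE 0.11).

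Nup37, a small subunit bound to Nup160, was among the more variable members, at 25.95, 20.7 and 24.7 CPM in control and 16.8, 25.2 and 21.5 CPM under sleep fragmentation. It was lowest in sleep fragmentation replicate 1, while replicate 2 lay within the control range (CV 16.3%; log2 fold change -0.17, SE 0.18). Sec13, which also coats vesicles that leave the endoplasmic reticulum, had 95.7, 81.00 and 84.9 CPM in control and 79.8, 93.8 and 87.6 CPM under sleep fragmentation. The groups covered the same range, with means of 87.2 ± 7.59 against 87.1 ± 7.005 CPM, mean ± SD, n = 3 (log2 fold change -0.0021, SE 0.12). The others of the ring, Nup107, Nup133, Nup43, Seh1l and Ahctf1, had log2 fold changes between -0.20 and -0.053 with overlapping groups. Nup107 and Nup133 form the stalk of the Y, and Ahctf1, also called ELYS, brings the complex to chromatin when pores form after mitosis. Ahctf1 had 98.98, 76.9 and 95.02 CPM in control and 81.8, 90.7 and 85.1 CPM under sleep fragmentation, and its lowest library was control replicate 2. The same library was the lowest of the 6 for Seh1l and Nup43 (89.4, 71.1 and 83.5 CPM in control and 76.3, 80.9 and 77.9 CPM under sleep fragmentation for Seh1l).

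In the inner ring 4 of 5 genes had lower fitted levels, and the median log2 fold change of the 5 was -0.20. Nup155, which binds the membrane and has the ETS letters in its promoter, had 98.3, 87.8 and 98.3 CPM in the control libraries (replicates 1 to 3) and 77.9, 86.9 and 84.1 CPM in those of sleep fragmentation. The groups did not overlap, and the means were 94.8 ± 6.10 against 82.96 ± 4.62 CPM, mean ± SD, n = 3 (log2 fold change -0.19, SE 0.11). Nup188 and Nup205 are related large scaffold proteins that each bind Nup93. Nup188 had 79.2, 74.5 and 84.7 CPM in control and 69.4, 76.5 and 61.8 CPM under sleep fragmentation, with 1 sleep fragmentation library inside the control range (log2 fold change -0.20, SE 0.12). Nup205 had a nearly equal log2 fold change of -0.20 (SE 0.13). Nup93, which anchors the channel proteins in the ring, had 68.04, 51.7 and 67.1 CPM in the control libraries (replicates 1 to 3) and 46.5, 66.1 and 47.5 CPM in those of sleep fragmentation. Control replicates 1 and 3 and sleep fragmentation replicate 2 lay close together at the top and the other 3 libraries well below, so that each group had libraries in both ranges (CV 17.9%; log2 fold change -0.22, SE 0.17). Nup35, a membrane-bending partner of Nup93, stood on the other side of 0, at 18.6, 20.9 and 20.01 CPM in control and 16.4, 22.7 and 21.7 CPM under sleep fragmentation (log2 fold change 0.030, SE 0.16 under TMM, -0.062 with library size alone), and its lowest and highest values both came from the sleep fragmentation group.

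Of the 3 membrane proteins all had lower fitted levels, with a median of -0.17. Nup210, a protein with a large domain in the lumen of the envelope, had 329, 289.6 and 388 CPM in the control libraries (replicates 1 to 3) and 278, 341 and 255 CPM in those of sleep fragmentation. The groups overlapped widely, since sleep fragmentation replicate 2 exceeded control replicates 1 and 2 (335 ± 49.4 against 291 ± 44.7 CPM, mean ± SD, n = 3; log2 fold change -0.20, SE 0.16). Leaving out control replicate 3 gave -0.086 for Nup210, and leaving out replicate 2 or 3 of sleep fragmentation gave -0.33 or -0.12. Pom121, needed for new pores in the interphase nucleus, had 75.3, 80.5 and 80.02 CPM in control and 75.6, 71.9 and 62.2 CPM under sleep fragmentation (log2 fold change -0.17, SE 0.11), with sleep fragmentation replicate 3 well below the other 5 libraries. Ndc1, the third of them, had 108, 117 and 106 CPM in control and 94.2, 111 and 102 CPM under sleep fragmentation. Its highest library was control replicate 2 and its lowest sleep fragmentation replicate 1 (log2 fold change -0.11, SE 0.11).

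Of the 3 central channel genes, Nup62 and Nupl1 had among the steadiest levels of all pore genes and Nup54 among the less steady, with a median log2 fold change of -0.070. Nup62, the FG protein at the heart of the channel, had 79.2, 83.04 and 80.96 CPM in the control libraries (replicates 1 to 3) and 76.5, 78.8 and 73.04 CPM in those of sleep fragmentation. The groups did not overlap, but the gap between them was 0.385 CPM (81.1 ± 1.94 against 76.1 ± 2.89 CPM, mean ± SD, n = 3; log2 fold change -0.091, SE 0.098). Nupl1, which encodes Nup58, a partner of Nup62, had 131, 122 and 121 CPM in the control libraries (replicates 1 to 3) and 129, 128 and 128 CPM in those of sleep fragmentation. Its 3 sleep fragmentation libraries lay close together inside the range of control (CV 3.06%; log2 fold change 0.047, SE 0.10 under TMM, -0.055 with library size alone). Nup54, the other partner, had 59.4, 54.1 and 55.9 CPM in control and 44.2, 66.96 and 50.1 CPM under sleep fragmentation, so the libraries of sleep fragmentation held both the lowest and the highest value of the 6. Nup98 encodes a precursor that is cut into an FG protein found on both faces and Nup96, a subunit of the outer ring. It had 98.3, 100.2 and 104 CPM in control and 101, 94.9 and 93.5 CPM under sleep fragmentation (CV 3.41%; log2 fold change -0.064, SE 0.10), with overlapping groups.

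On the cytoplasmic face 6 of 6 genes had lower fitted levels, and the median of their log2 fold changes was -0.12, with overlapping groups in each. With 1 library left out at a time the median ranged from -0.21 (without sleep fragmentation replicate 2) to -0.053 (without control replicate 1). Ranbp2, the giant filament protein that docks the Ran GTPase-activating protein, had 311, 277 and 274 CPM in the control libraries (replicates 1 to 3) and 252, 282 and 260.1 CPM in those of sleep fragmentation (log2 fold change -0.12, SE 0.12). Nup88, which holds Nup214 in place, had 105, 93.3 and 101 CPM in control and 81.6, 102 and 105 CPM under sleep fragmentation. Only its first sleep fragmentation library lay below the controls (log2 fold change -0.058, SE 0.13). Nup214, an FG protein that receives export complexes, had 65.2, 68.5 and 74.8 CPM in control and 67.5, 70.4 and 53.1 CPM under sleep fragmentation, with sleep fragmentation replicate 3 the lowest. Nupl2, which encodes Nup42, a partner of the export factor Gle1, had 10.4, 6.43 and 9.46 CPM in control and 6.77, 9.65 and 7.41 CPM under sleep fragmentation. It had the largest CV of the pore genes, 21.4%, and its lowest library was control replicate 2 (log2 fold change -0.14, SE 0.24). Rae1, an mRNA export factor, and Aaas, which encodes aladin, a protein anchored by Ndc1, had log2 fold changes of -0.10 and -0.20 (SE 0.14 and 0.13).

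The nuclear basket lay closest to 0, with a median of -0.016 over its 3 genes. Tpr, the coiled protein that forms the basket's struts, had 438, 376 and 382 CPM in the control libraries (replicates 1 to 3) and 381, 389 and 414 CPM in those of sleep fragmentation. Control replicate 1 was its highest library and the groups overlapped (399 ± 34.1 against 395 ± 17.5 CPM, mean ± SD, n = 3; log2 fold change -0.016, SE 0.12). Nup153, which anchors the basket, had 156, 146 and 162 CPM in control and 153, 168 and 146 CPM under sleep fragmentation (log2 fold change 0.0089, SE 0.11 under TMM, -0.091 with library size alone), with the groups overlapping throughout. Nup50, an import cofactor whose promoter holds the NRF1 letters at 3 places, had 135, 130.1 and 128 CPM in the control libraries (replicates 1 to 3) and 128, 124 and 120.3 CPM in those of sleep fragmentation. It had the smallest CV of the pore genes, 2.82%, and a gap of 0.64 CPM between the groups (131 ± 3.49 against 124 ± 3.67 CPM, mean ± SD, n = 3; log2 fold change -0.082, SE 0.10).

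Nup210l, a relative of Nup210 known mainly from testis, was low, at 7.67, 5.60 and 5.29 CPM in control and 6.51, 4.58 and 6.31 CPM under sleep fragmentation (log2 fold change -0.096, SE 0.25). It was highest in control replicate 1 and lowest in sleep fragmentation replicate 2. Nupr1, the stress-inducible transcription regulator that the rule took by its symbol, had 2.75, 1.019 and 2.62 CPM in control and 2.36, 1.98 and 2.77 CPM under sleep fragmentation and a wide interval (log2 fold change 0.15, SE 0.43). Nupr1l had 0 to 4 reads per control library and 3 to 6 per sleep fragmentation library. It was the only gene of the rule removed by the filter on low counts, and no fold is given for it.

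**Figure D2:**
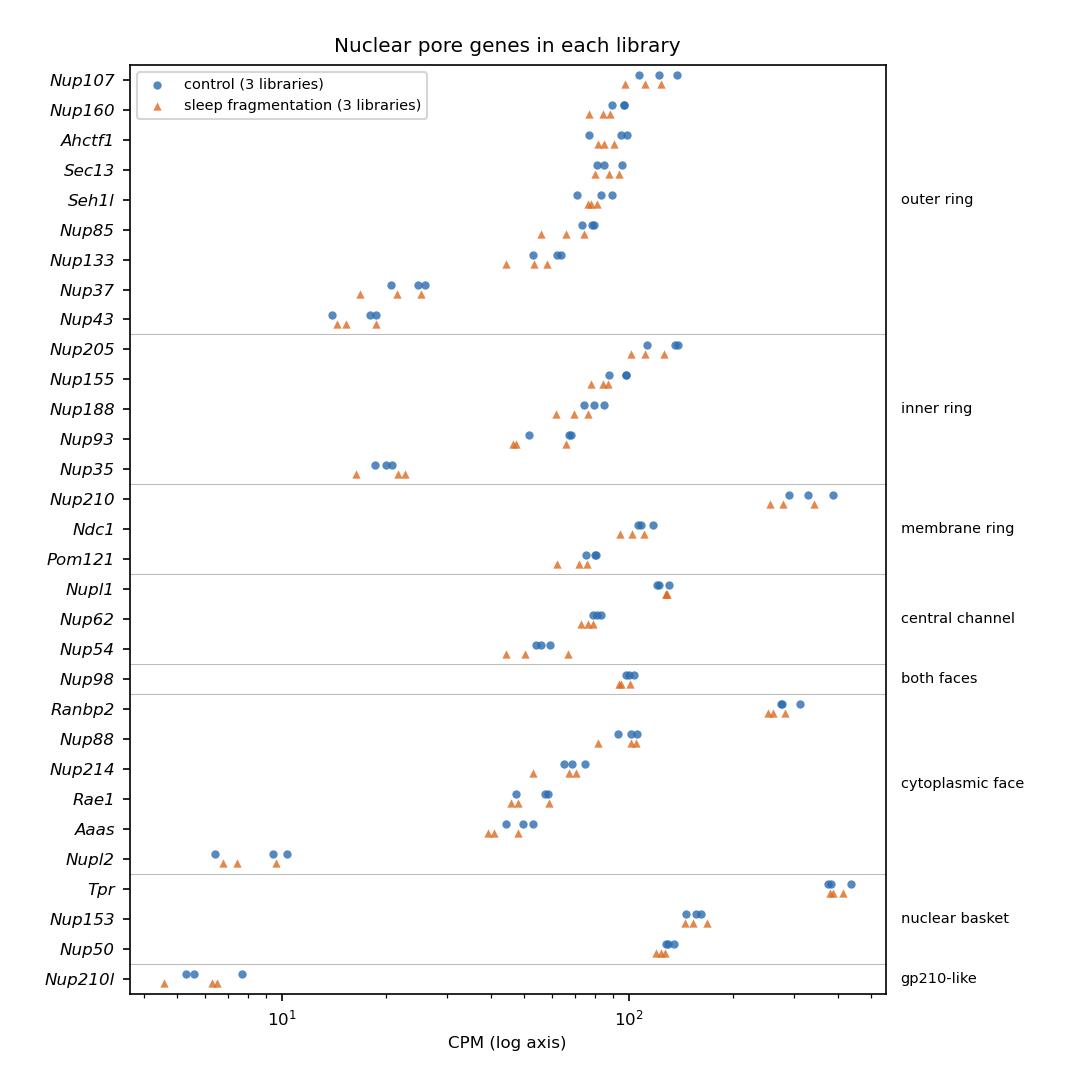
CPM of the 31 pore genes in each library on a log axis, grouped by place in the pore, with 1 point per library. Control (circles) and sleep fragmentation (triangles) overlap in 27 of 31 genes.

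Most pore genes moved together from library to library, and this pattern crossed the groups. Each gene's log2 CPM was set against its own mean over the 6 libraries, and the median over the 31 genes was 0.15, -0.063 and 0.11 in the control libraries (replicates 1 to 3) and -0.16, 0.067 and -0.083 in those of sleep fragmentation. Control replicates 1 and 3 and sleep fragmentation replicate 2 thus lay above 0, and the other libraries of each group below. Subtracting this library median made the SD over the 6 libraries smaller in 21 of 31 genes. The median came from the same 31 genes, so some narrowing follows by construction. No other list was treated this way, and the count is only a description. The SD did not become smaller in any of the 3 basket genes. Nor did it in Nup62, Nupl1, Pom121, Ndc1, Nup35, Nup98 and Nup210l. Control replicate 1 was the highest of the 6 libraries in 17 of 31 pore genes, against 16.5% of all tested genes. Sleep fragmentation replicate 1 was the lowest in 14 (all tested genes, 28.5%) and replicate 3 in 10 (14.9%). Within its group, control replicate 2 was the lowest in 21 of 31 (39.7% of all tested genes), and sleep fragmentation replicate 2 was the highest in 24 of 31 (38.2%).

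**Figure D3:**
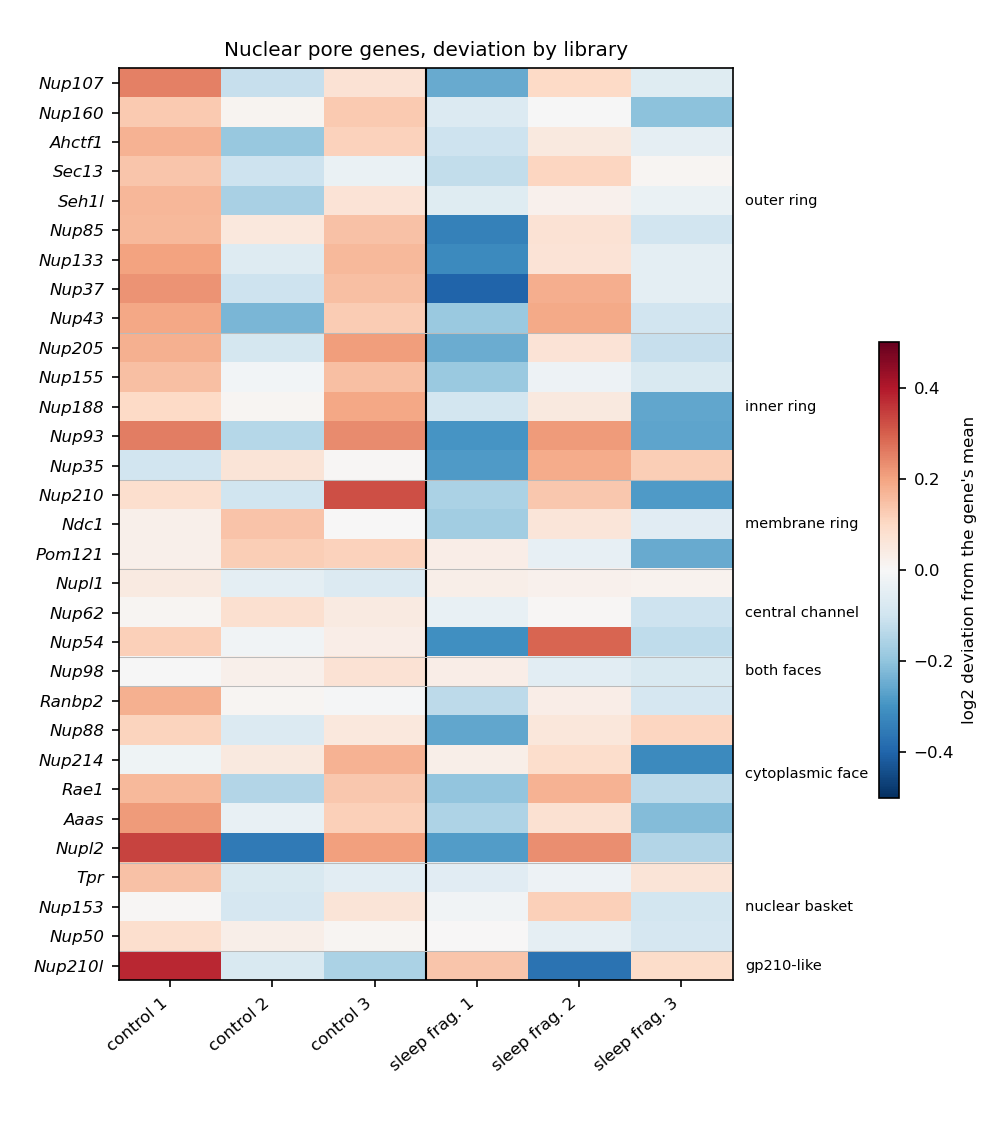
Log2 deviation of each pore gene from its own mean over 6 libraries (red above, blue below; the black line divides control from sleep fragmentation). Most rows are red in control replicates 1 and 3 and sleep fragmentation replicate 2, and blue in sleep fragmentation replicate 1.

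In the outer ring the library medians were 0.17, -0.10 and 0.13 in the control libraries (replicates 1 to 3) and -0.19, 0.073 and -0.050 in those of sleep fragmentation. In the basket they were 0.084, -0.075 and 0.0097 in the control libraries (replicates 1 to 3) and -0.018, -0.027 and -0.083 in those of sleep fragmentation. These values are a description, and the difference between the rings and the basket was not tested.

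Genes of maturing neutrophils varied over the same libraries, in the opposite sense. For 20 late granule genes, which mark cells further along the neutrophil path, the library medians were -0.38, 0.21 and -0.65 in the control libraries (replicates 1 to 3) and 0.97, -0.38 and 0.41 in those of sleep fragmentation. The 3 libraries above 0 for the pore genes were the 3 below 0 for this list. All 20 of 20 had higher fitted levels after sleep fragmentation, 6 at an unadjusted p under 0.05 where 2.16% of all tested genes were higher at that p, and none was at 0 in any library. The list was chosen with earlier results of these data known, so these counts are only a description. The summed level of the 20 genes lay between 27717 and 49458 CPM in control and between 29117 and 80621 CPM after sleep fragmentation. With the mean score of this list as a covariate in the fit, the median log2 fold change of the pore genes was 0.0028 and 16 of 31 had higher fitted levels. Of 12 progenitor genes such as Mpo and Kit, 11 had lower fitted levels (median of the 12, -0.21). The summed level of the 12 lay between 16923 and 19152 CPM in control and between 12311 and 18387 CPM after sleep fragmentation. The 1 with a higher fitted level was Fcgr3 (log2 fold change 0.21). It had 309, 337 and 291 CPM in control and 401, 305 and 379 CPM under sleep fragmentation. The library medians of the 12 progenitor genes were 0.098, -0.030 and 0.17 in control and -0.38, 0.17 and -0.053 under sleep fragmentation. The same 3 libraries lay above 0 as for the pore genes. The late granule score itself differed between the groups and came from the same 6 libraries, and the part of maturing cells in the values of the pore genes was not tested.

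Of 24 cell cycle genes, 22 had lower fitted levels (median -0.10), 1 of them at an unadjusted p under 0.05, where 0.661% of all tested genes were lower at that p. Their library medians were 0.11, 0.062 and 0.00023 in the control libraries (replicates 1 to 3) and -0.13, -0.094 and 0.051 in those of sleep fragmentation, an order unlike that of the pore genes, with sleep fragmentation replicate 2 below 0 and replicate 3 above it. Genes within the list differed. Mcm6 had 523, 446 and 472 CPM in control and 376, 490 and 436 CPM under sleep fragmentation. It was thus highest in the libraries where the pore genes lay above 0. The same held for Mcm2, Mcm3, Mcm4 and Mcm7, but not for Mcm5. Nor did it hold for most other genes of the list, such as Top2a, Ccnb1, Pcna, Rrm2 and Cdt1. The cell cycle genes named here were picked outside any rule, as a description. Mki67 had 1588, 1651 and 1413 CPM in control and 1509, 1272 and 1562 CPM under sleep fragmentation. Without sleep fragmentation replicate 2, the pore genes' median was -0.19, and 2 genes had an unadjusted p under 0.05 and lower levels, Nup93 (log2 fold change -0.41, SE 0.15) and Nup85 (-0.33, SE 0.13), both at edgeR adjusted p = 0.441. The share of all genes with such a p and a lower level was then 3.67%. Without control replicate 1 the median was -0.061 and 8 of 31 were higher, and without sleep fragmentation replicate 1 it was -0.087, again with 8 of 31 higher.

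**Figure D4:**
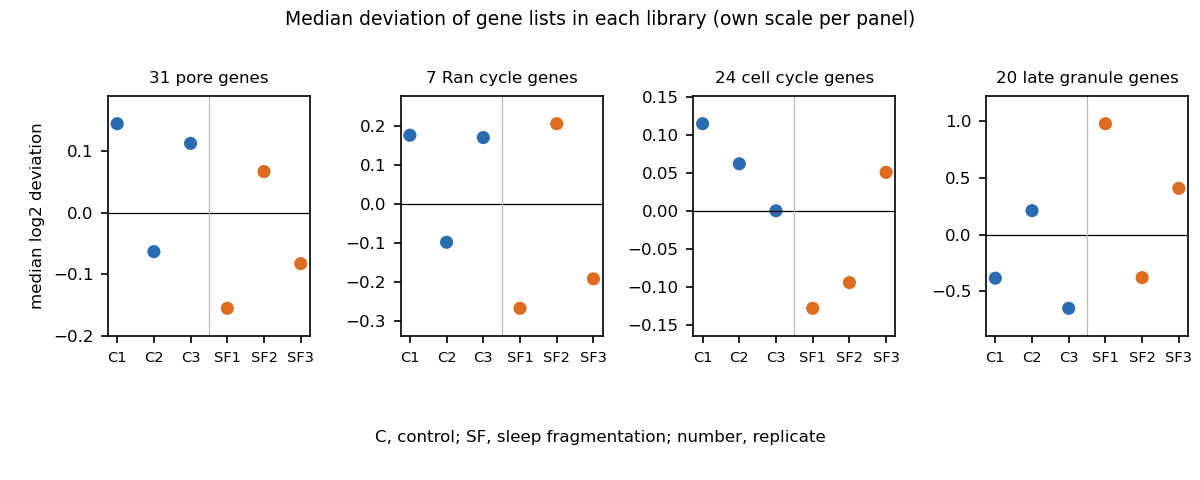
Median log2 deviation of 4 gene lists in each library (C, control; SF, sleep fragmentation), with an own vertical scale per panel. Pore and Ran cycle genes are high in C1, C3 and SF2, and late granule genes are low in those 3 libraries.

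The carriers that work through the pore were described by lists in the same fit. The Ran cycle, which gives transport its direction, had 7 of 7 genes with lower fitted levels and a median of -0.13. Ran itself had 459, 368 and 428 CPM in control and 331, 429 and 390.0 CPM under sleep fragmentation (log2 fold change -0.13, SE 0.15). Ranbp3, a cofactor of export by Xpo1, had groups that did not overlap (78.4 ± 4.73 against 70.1 ± 4.76 CPM, mean ± SD, n = 3; log2 fold change -0.16, SE 0.11). Nutf2, which returns Ran to the nucleus, had a log2 fold change of -0.23 (SE 0.18), and Rangrf, a Ran-binding protein, one of -0.51 (SE 0.41). The library medians of the list were 0.18, -0.098 and 0.17 in the control libraries (replicates 1 to 3) and -0.27, 0.21 and -0.19 in those of sleep fragmentation, with the same 3 libraries above 0 as for the pore genes.

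Importins and exportins also leaned to the lower side. Of 17 tested importin genes 14 had lower fitted levels (median -0.063), and Kpna7 was not tested for want of reads. Kpnb1, importin beta, had 547, 471 and 542 CPM in control and 434, 551 and 526 CPM under sleep fragmentation, and Kpna2, an importin alpha of dividing cells, had a log2 fold change of -0.076 (SE 0.12). Ipo9, a carrier of histones, had groups that did not overlap (90.5 ± 2.16 against 81.97 ± 3.70 CPM, mean ± SD, n = 3; log2 fold change -0.14, SE 0.099). Tnpo1 and Tnpo3, which carry RNA-binding proteins, had log2 fold changes of -0.14 and -0.11. Of 7 exportin genes 5 were lower (median -0.096). Xpo7 had groups that did not overlap (74.04 ± 0.188 against 66.2 ± 1.92 CPM, mean ± SD, n = 3; log2 fold change -0.16, SE 0.097), while Xpo6, the exporter of actin, had a log2 fold change of 0.15 and Cse1l, which recycles importin alpha, one of -0.15. Xpo1, the main exporter of proteins, had 298, 300.1 and 287 CPM in control and 277, 299 and 321 CPM under sleep fragmentation, with overlapping groups (log2 fold change 0.019, SE 0.12).

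Of 21 genes of mRNA export 14 had lower fitted levels, with a median of -0.052. Nxf1, the receptor that carries messenger RNA through the channel, had 166, 201 and 191 CPM in control and 175, 196 and 195 CPM under sleep fragmentation (log2 fold change 0.020, SE 0.12). Gle1 and Ddx19b, which release messenger RNA at the cytoplasmic face, and Mcm3ap, the scaffold of an export complex at the basket, had log2 fold changes of -0.16, -0.14 and -0.11. Of 9 proteins that bind or service the pore 5 were lower (median -0.0020). Mad1l1, a checkpoint protein held at the basket, and Senp1, a SUMO protease bound to the pore, had groups that did not overlap (log2 fold change -0.18, SE 0.12 and log2 fold change -0.15, SE 0.10), while Senp2, its relative, had a log2 fold change of 0.16. None of these 61 transport genes passed edgeR's test (adjusted p = 0.99988 for each, against 0% of all genes), and 0 had an unadjusted p under 0.05, against 2.82% of all genes. Lower levels without overlap were found in 1 of 7 Ran cycle genes, 1 of 17 importins and 1 of 7 exportins. They were found in 0 of 21 mRNA export genes and 2 of 9 pore partners, against 3.84% of all tested genes.

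For a rough comparison between genes, levels were divided by length, here that of the longest-coding GENCODE transcript. On that scale the pore genes had a median of 22.5 CPM per kb, and 70.7% of the 11690 tested genes with a length lay below it (median of all, 10.4 CPM per kb). Sec13 was the highest, at 64.4 ± 4.83 CPM per kb (mean ± SD over the libraries of both groups, n = 6). It was followed by Tpr at 53.4 ± 3.28 CPM per kb, Nup210 at 44.5 ± 6.90 CPM per kb and Nup88 at 40.03 ± 3.75 CPM per kb. At the other end stood Nup133 at 9.60 ± 1.21 CPM per kb, Nupl2 at 2.87 ± 0.577 CPM per kb and Nup210l at 1.05 ± 0.189 CPM per kb. Only 3 of the 30 pairs of neighbours in this order had library ranges that did not overlap, Sec13 above Tpr, Nup133 above Nupl2 and Nupl2 above Nup210l. Every other step of the order was within the spread between libraries.

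Genes of one ring differed in transcript level per length. By the transcript length the outer ring spanned 9.60 to 64.4 CPM per kb, a ratio of 6.71. Its highest gene was Sec13, which also coats vesicles outside the pore. The inner ring spanned 11.3 to 19.7 CPM per kb and the central channel 23.4 to 35.1. The order depends on the length used. With the union of annotated exons, an alternative chosen after the values were seen, Nup88 moved from rank 4 to rank 19 and Sec13 from rank 1 to rank 6, while Tpr took rank 1. Sec13 then had 27.4 CPM per kb, and Nup107 was the highest of the outer ring at 30.3 CPM per kb. Nupl2 and Nup210l were the lowest by either length.

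**Figure D5:**
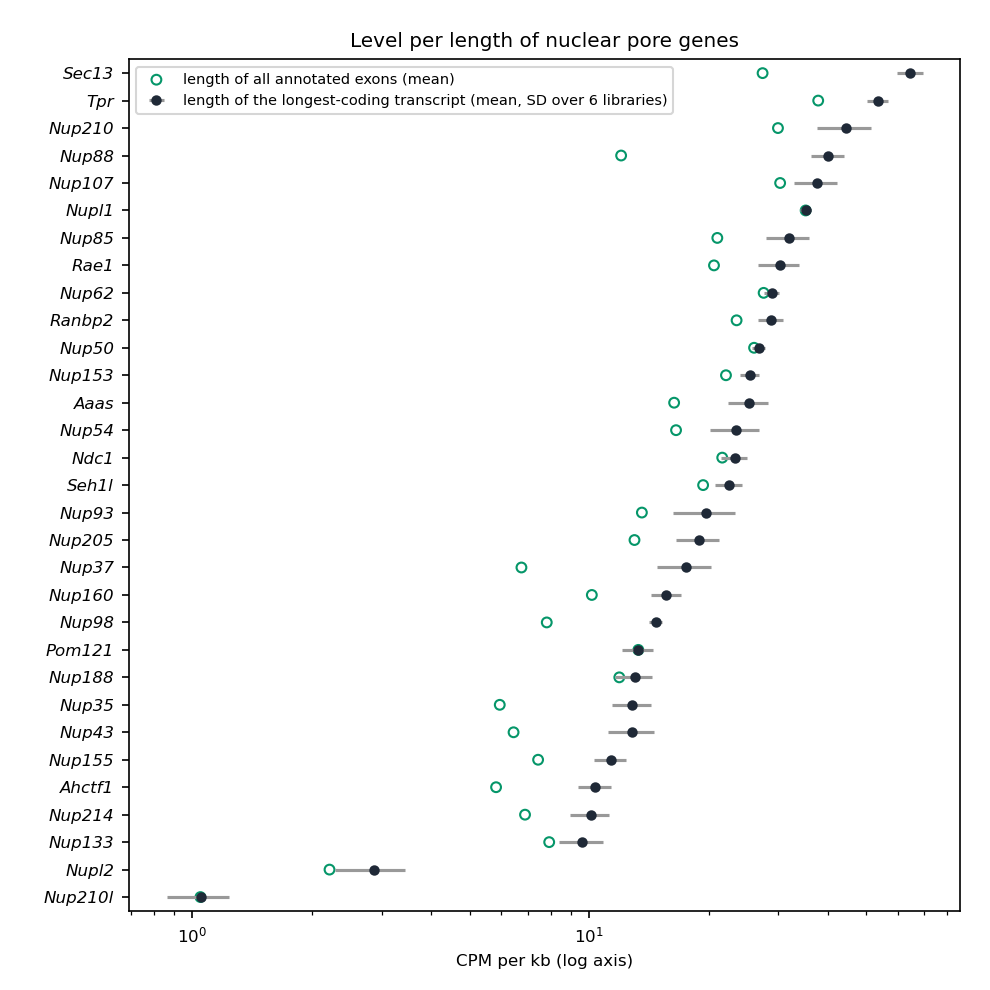
Level per length of the 31 pore genes on a log axis; filled points are the mean CPM per kb of the longest-coding transcript with the SD over 6 libraries, open points use the union of exons. Sec13 and Tpr lead by the first length, and Nupl2 and Nup210l are lowest by either.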

How the data were processed

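Polyadenylated RNA was sequenced from granulocyte-monocyte progenitors of 6 libraries, grouped by the sample titles. Counts per gene were deposited by the authors, and fastp, HISAT2, HTSeq and build GRCm39 are named in the submitters' processing notes. Versions, strand setting and annotation are not given in the sources used here, so reads of a gene and an antisense partner cannot be told apart. Counts were tested in R 4.3.3 with edgeR 4.0.16 (filterByExpr, minimum count 10 and minimum total 15, 12097 of 16539 genes kept; TMM factors 0.910 to 1.09; robust quasi-likelihood F-test on group, Benjamini-Hochberg adjustment, threshold 0.05). With 4 residual degrees of freedom, the common biological coefficient of variation was 0.206. Fold changes set sleep fragmentation over control, and library deviations used a prior count of 2. Alternatives used DESeq2 1.42.0, limma-voom 3.58.1, other scalings, filters and designs, and each library left out. Lengths came from GENCODE M21 and promoters from RefSeq, both on GRCm38. Coordinates are given for promoter windows only, on that build. Genes given by library were, by rule, the highest per length in each group, the smallest p in each direction, those with non-overlapping groups and those of extreme CV; the others were added to fill out their place in the pore. For transport lists, Kpnb1, Kpna2, Xpo1, Ran and Nxf1 and up to 3 genes of smallest p in a list were named. Single genes of the cell marker and cell cycle lists were named outside these rules. The members and lists were chosen with earlier results of these data known. Protein sequences were not used here.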

Additional observations from a re-analysis of the deposited data

How the results depend on the processing

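No pore gene was called under any of the 14 alternatives, and edgeR and limma-voom called 0 genes in all, while DESeq2 called 13. Scaling by library size alone moved the median of all genes to -0.11, and by construction the lists with it: 0 pore genes were higher, and medians were -0.21 for the pore genes, -0.24 for the outer ring, -0.30 for the inner ring, -0.27 for the membrane proteins, -0.22 for the cytoplasmic face, -0.19 for exportins, -0.22 for the Ran cycle, -0.16 for the central channel, -0.17 for Nup98, -0.12 for the basket, -0.16 for importins, -0.16 for mRNA export and -0.10 for pore partners. Log2 fold changes became -0.055 for Nupl1, -0.062 for Nup35 and -0.091 for Nup153. That of Sec13 became 0.0084 with DESeq2's size factors, 0.0013 with a minimum count of 50 and 0.0085 in DESeq2.

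With the late granule score as a covariate, 16 pore genes were higher and the median was 0.0028. Medians were then 0.057 for the outer ring, -0.0092 for the inner ring, 0.053 for the central channel, 0.013 for the cytoplasmic face, -0.074 for the membrane proteins, 0.020 for the basket, 0.069 for the Ran cycle, 0.0086 for mRNA export, 0.025 for importins and 0.033 for exportins. The log2 fold change became 0.073 for Nup88, 0.062 for Nup93, 0.0028 for Nup210, 0.020 for Tpr, 0.11 for Sec13, 0.22 for Nupl2 and 0.093 for Nup37. The cause was not tested.

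With each library left out in turn, the number of pore genes higher ranged from 2 to 8, their median from -0.19 to -0.061 and the number lower at an unadjusted p under 0.05 from 0 to 2. Medians ranged from -0.23 to -0.039 for the outer ring, -0.28 to -0.13 for the inner ring, -0.20 to -0.11 for the membrane proteins, -0.12 to 0.043 for the central channel, -0.21 to -0.053 for the cytoplasmic face, -0.054 to 0.014 for the basket, -0.12 to -0.021 for importins, -0.17 to -0.023 for exportins, -0.26 to -0.068 for the Ran cycle, -0.088 to -0.039 for mRNA export and -0.071 to 0.046 for pore partners. Log2 fold changes ranged from -0.054 to 0.057 for Tpr, -0.059 to 0.069 for Sec13, -0.20 to 0.088 for Nup210l, -0.060 to 0.16 for Nup35, -0.32 to 0.00052 for Nupl2, -0.052 to 0.054 for Nup153, -0.18 to 0.38 for Nupr1, -0.33 to -0.086 for Nup210, -0.41 to -0.13 for Nup93, -0.31 to -0.027 for Nup37, -0.33 to -0.13 for Nup85 and -0.13 to 0.046 for Nup88. The cause was not tested.

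Same-numbered libraries had correlations of deviations of -0.25, -0.37 and -0.0059. The labels do not say that the numbers mark pairs. Each group of 3 libraries was centred on its own mean, so these correlations cannot decide whether they do. With the replicate block 0 genes were called, 3 pore genes were higher and their median was -0.11, and 169 genes had an unadjusted p under 0.05 against 341. With 3 libraries a group and TMM scaling, the intervals of 28 of 31 pore genes leave room for differences of less than 1.5-fold.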
